A study of Mus musculus with 2 samples.

Results

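Primary cilium genes whose loss is linked to ciliopathies with facial malformation were examined in open chromatin maps of the mouse embryonic face. They are 40 named genes, chosen by name from their known function and not by any measured value, though with earlier results of these data known. They are set beside the 21644 protein-coding genes of the GENCODE mouse annotation used here. A protein-coding start site was annotated for 39 of the 40. The fortieth, Tctn2, is typed as a processed transcript in that annotation and is described on its own. Chromatin was profiled by DNase-seq, in which the nuclease DNase I cuts accessible DNA in nuclei. The tissue was the facial prominences, the swellings from which the embryonic face is built, from healthy B6NCrl embryos of 11.5 days with both sexes pooled. The series held 1 group of 2 libraries, labelled biological replicates 1 and 2, from separate biosamples that share a donor label. The embryos carried no named allele or treatment. Both libraries were run on HiSeq 2500 and NextSeq 500 sequencers, and replicate 2 on a HiSeq 2000 as well. With a single group there was no comparison between conditions and no test, and values over all protein-coding genes stand beside those of the cilium genes as a description.

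The primary cilium is a single, immotile antenna on the cell surface that receives Hedgehog and other signals. Intraflagellar transport (IFT) trains carry cargo along it, with kinesin-2 moving outward and dynein-2 moving back, while the BBSome ferries membrane proteins and the transition zone at its base gates entry. In the facial prominences Hedgehog signals are read through cilia of neural crest mesenchyme and epithelium, and loss of ciliary genes is known to alter facial width, clefting and tooth number. RFX transcription factors, with Foxj1 in motile cilia, are known to act on many cilium genes through the X-box, a pair of inverted half-sites in the promoter.

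Each library had its own list of peaks, all 150 bp wide, with a whole-number strength deposited by the authors on a scale that is not stated. A promoter peak had its midpoint within 1 kb of a protein-coding transcription start site. A peak counted as shared where a replicate 2 peak covered at least 75 bp of a replicate 1 peak. Because strengths of the libraries may not be on 1 scale, each peak was ranked among all promoter peaks of its own library, as a percentile. The depth of each library is unknown, as the files analysed give no number of reads.

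The X-box was searched as GTNNC, any 4 bases, then GNNAC, a pattern that is its own reverse complement, within the replicate 1 sequence of shared promoter peaks. It was present in 11 of 39 cilium genes (28.2%), in 12 matches. The matches are printed because they are the sequence feature by which the promoters were compared with those of other genes. Each is read 5′ to 3′ on the strand of its gene, from the RefSeq copy of GRCm38, the build of the files (mm10). Capitals mark the match, and lower case marks flanking bases, which are given only for the 5 matches whose window lies outside annotated UTRs.
Wdr19: tttgcacgGTCTCCTGGGTGACgagaacgc
Mks1: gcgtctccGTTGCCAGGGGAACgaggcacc
Intu: gcttccccGTCTCCCAGGCAACcggcgcct
B9d1: cgctgtgtGTGGCAACAGCGACaccacctg
Bbs1, upstream match: cttatttgGTCCCAGCCGGGACaattttac
Bbs1, match at the start: GTTGCCAAGGCGAC
Tmem231: GTTGCCGTGGAGAC
B9d2: GTTGCCCCAGCAAC
Dync2h1: GTCGCCATAGCGAC
Ift140: GTCACCCAGGGAAC
Bbs4: GTCGCCCGGGAAAC
Tmem216: GTTTCCATGGGGAC

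The search covered shared promoter peaks alone, and in 30 of 39 genes the strongest of them lay within 100 bp of a start site. Closeness of a match to a start site was thus largely set by the search. By distance, 11 of 12 matches lay within 100 bp of a transcription start site. The exception was B9d1, which encodes a transition zone protein, with its match (chr11:61504842-61504855, plus strand) 296 bp upstream. That match overlapped an annotated exon, though no UTR. Wdr19, an IFT-A subunit, had its match at chr5:65199662-65199675 on the plus strand, 28 bp upstream, in a replicate 1 peak of strength 106. The replicate 2 peak overlapping that peak (strength 136) did not hold the match. Mks1, a transition zone gene of Meckel syndrome, had its match at chr11:87853191-87853204 on the plus strand, 18 bp upstream, in a peak of strengths 90 and 131. Intu, a planar cell polarity effector that takes part in cilium assembly, had its match at chr3:40540717-40540730 on the plus strand, 44 bp upstream of the downstream of its 2 start sites, in a peak of strengths 95 and 125. In these 3 genes the match lay in the strongest promoter peak of replicate 1. Bbs1, a BBSome subunit, had matches on the minus strand at chr19:4906703-4906716 and chr19:4906613-4906626, 81 bp upstream and 1 bp downstream of a start site, both in its single replicate 1 promoter peak. Of the 12 matches, 9 also lay whole within a replicate 2 promoter peak, while that of Tmem216 and the upstream one of Bbs1 lay there in part, with 9 and 3 of their bases, and that of Wdr19 lay outside.

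The other matches overlapped exons and, with their flanks, annotated UTRs. They were at chr8:111933789-111933802 for Tmem231 (minus strand, 86 bp downstream of the start site), chr7:25680796-25680809 for B9d2 (plus strand, 22 bp) and chr19:10555731-10555744 for Tmem216 (minus strand, 14 bp from its downstream start site), all transition zone genes. Bbs4, a BBSome subunit, held its match at chr9:59353472-59353485 (minus strand, 30 bp downstream). For Ift140, an IFT-A subunit, it was at chr17:25016400-25016413 (plus strand, 15 bp downstream of the second start site), in a peak of strengths 51 and 104 that was not the strongest of that promoter. Dync2h1, the heavy chain of dynein-2, carried its match at chr9:7177030-7177043 (minus strand), 10 bp downstream of an internal start site 7.4 kb into the gene. By role, matches fell in 5 of 11 transition zone genes, 2 of 6 BBSome genes, 2 of 6 IFT-A genes, in Intu and in Dync2h1. None fell in the 4 genes of IFT-B and kinesin-2, 3 ciliary Hedgehog regulators, 2 ciliary membrane genes, 2 chaperonin-like genes or C2cd3. With a match in 7.49% of all genes with a shared promoter peak, none among so few genes says little about a role. Outside the set, the IFT genes Ift22 and Ift57 had a match.

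Over all genes with a shared promoter peak, 7.49% had an X-box match in such a peak, and 4.2% of the 22998 shared promoter peaks held one. The motif shares of all genes given below are likewise over the genes with a shared promoter peak. A stricter pattern, GTNNCC, 2 bases, GGNNAC, was found in 8 cilium genes (20.5%) and in 2.53% of all genes. B9d1, B9d2 and Dync2h1 matched the looser pattern alone. When only peaks at the same position in both libraries were kept, the looser pattern was found in 2 of the 18 cilium genes left (11.1%), against 5.98% of all genes left. The single half-site GTTGCC, on either strand, was found in 15 cilium genes (38.5%) and in 12% of all genes. It can form an arm of the X-box, and outside any X-box match it was found in 9 cilium genes (23.1%) against 10.6% of all genes. Among those 9 were Kif3a, a kinesin-2 motor subunit, and Ift88, Ift172 and Ift80 of IFT-B. An X-box or half-site was thus present in 18 cilium genes (46.2%), against 17.1% of all genes. The strongest shared promoter peaks had a median GC content of 64.7% in the cilium genes and 66.7% in all genes, and the part of base composition in these shares was not tested.

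**Figure D1:**
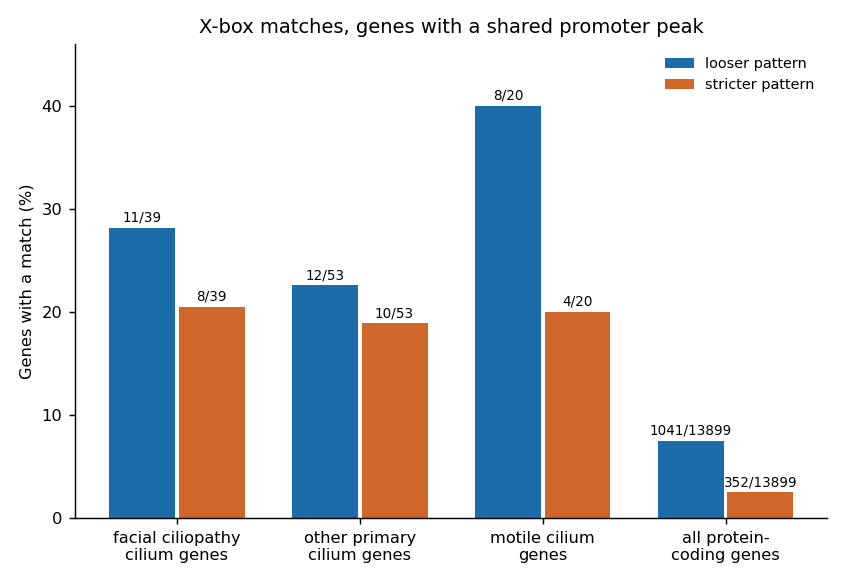
Share of genes with an X-box match, in percent of the genes of each list that have a shared promoter peak, for the looser and the stricter pattern. The counts stand over the bars, with 11 of 39 facial ciliopathy genes, 12 of 53 other primary cilium genes, 8 of 20 motile cilium genes and 1041 of 13899 protein-coding genes for the looser pattern.

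The other motifs searched, all on both strands, were closer to the values of all genes. The ETS motif CCGGAAG was in 10 cilium genes (25.6%, against 16.5% of all genes), NFY CCAAT in 17 (43.6% against 35.4%) and NRF1 GCGCNTGC in 9 (23.1% against 20.1%). The SP motif GGGCGG was in 23 (59% against 66.3%), and the E-box CACGTG was in 4 (10.3% against 10%). The CRE motif TGACGTCA was in none, against 3.71% of all genes. The YY1 motif ATGGCGGC was in Intu alone (3.96% of all genes), and the ZBTB33-like motif CTCGCGAG in Tctn1 alone (1.9% of all genes). A match is a run of letters and does not show that a factor was bound.

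Every one of the 39 cilium genes had a shared promoter peak, against 64.2% of all protein-coding genes (13899 of 21644). Their promoters were rich in CpG, with a median observed over expected CpG ratio of 0.674 over 1000 bp, against 0.576 for all genes. Of the cilium genes, 7 lay in the 25% of genes with the highest CpG ratio, in which 97.0% of all genes had a shared promoter peak. A further 27 lay in the next 25% (where 94.3% of all genes had one) and 5 in the 25% after that (55.9%), with none in the lowest 25% (9.67%). Most of the set thus fell where nearly all promoters were open, and the count of 39 is to be read against those shares. A promoter hotspot, a wider enriched region called by the authors, was present in both libraries for all 39, against 66.9% of all genes. Each of the 39 reached the deposited ceiling of 100 for −log10 q in both libraries, a value that 85.5% (replicate 1) and 91.4% (replicate 2) of all genes with a promoter hotspot also reached.

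The strongest promoter peak of the cilium genes ranged in strength from 67 to 111 in replicate 1 (median 91, all genes 85) and from 93 to 141 in replicate 2 (median 129, all genes 121). Their median percentile, averaged over the libraries, was 85.9 ± 1.84 (SD, n = 2 libraries), against 81.6 for all genes with a promoter peak in both libraries. The medians within the libraries were 84.9 and 87.5. Of the 39 genes, 28 (71.8%) lay above the all-gene median. The middle 50% spanned 81.3 to 92.7, against 67.1 to 90.9 for all genes. The lowest cilium gene, at 66.8, thus lay near the lower bound of that span for all genes. In the 25% of genes with the highest CpG ratio, the median percentile was 88.5, above that of the cilium genes. Only 7 of the 39 lay in that 25%, and no such median is given for the next 25%, which held 27.

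**Figure D2:**
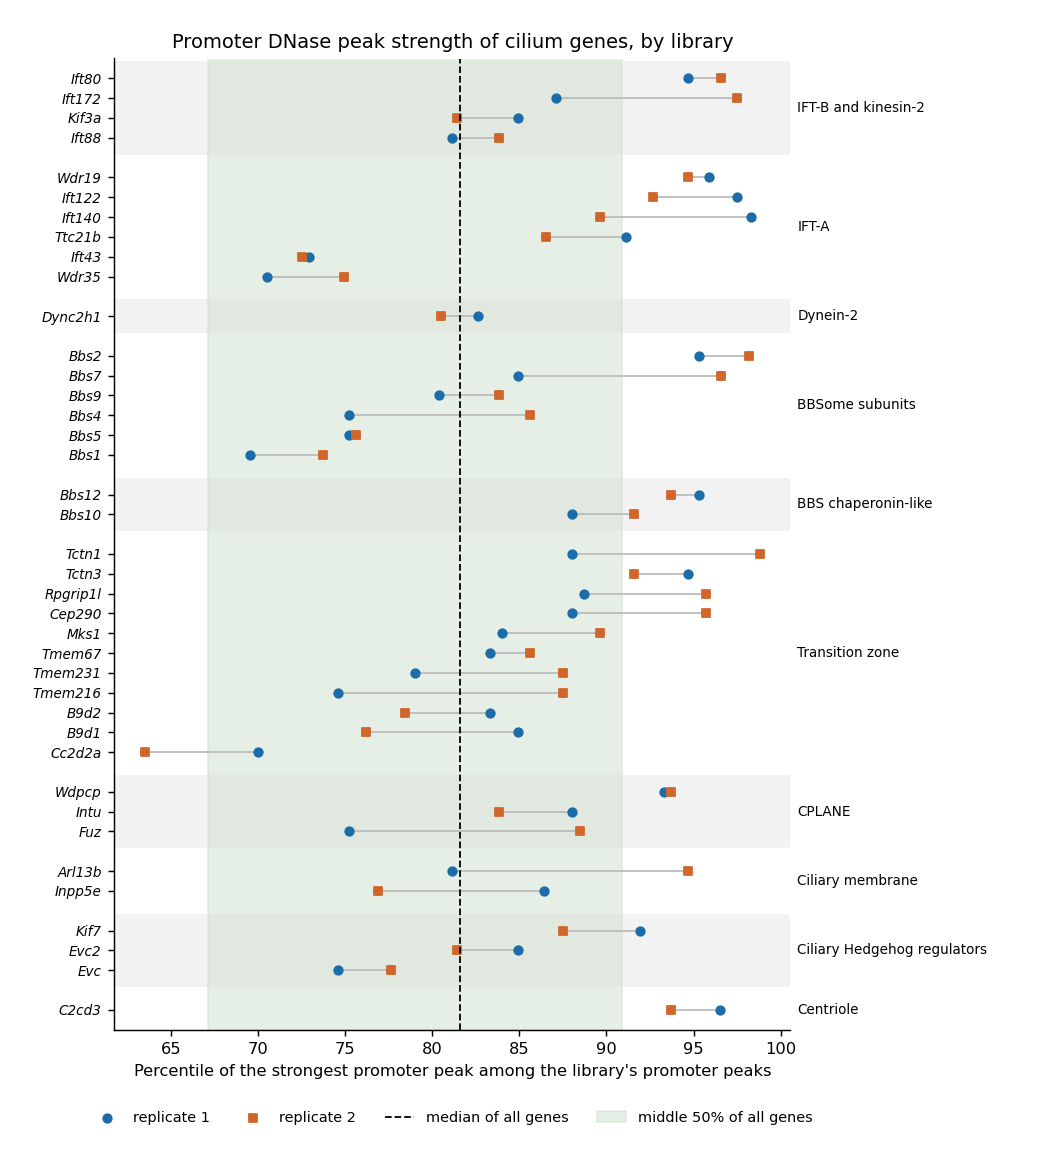
Percentile of the strongest promoter peak of each gene among all promoter peaks of its library (x axis), for replicate 1 (circles) and replicate 2 (squares), with genes grouped by role. The dashed line is the median of all genes, 81.6, and the shaded band spans their middle 50%, 67.1 to 90.9. Cc2d2a is the lowest gene in replicate 2, and most genes lie right of the line.

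Among genes of the transport trains, Ift80, an IFT-B subunit, had strengths of 104 in replicate 1 and 138 in replicate 2 and a mean percentile of 95.7. Wdr19 and Ift122, both IFT-A subunits, stood at 95.3 and 95.1. The strengths of Ift122 were 109 and 134. The IFT-A complex serves return transport and the entry of membrane proteins. Its genes ranged from 95.3 down to 72.7, the mean percentile of both Ift43 (73 and 109) and Wdr35 (69 and 113). These 2 were among the 5 lowest genes in the set. The median was 91.4 over the 6 IFT-A genes and 87.7 over the 4 genes of IFT-B and kinesin-2. Dync2h1 stood at 81.6, with strengths of 88 and 121.

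The BBSome genes, which encode the coat complex altered in Bardet-Biedl syndrome, were likewise spread out. Bbs2 had the highest mean percentile of the set, 96.8, with strengths of 105 and 140. Bbs1 (67 and 111, percentile 71.6) and Bbs5 (77 and 114, percentile 75.4) were near the lowest, and the median over the 6 BBSome genes was 81.2. The chaperonin-like genes Bbs10 (95 and 133) and Bbs12 (105 in replicate 1), which help to assemble the BBSome, stood at 89.8 and 94.5. Genes of 1 complex thus had promoters at both ends of the range.

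Among transition zone genes the median percentile was 84.4, from 93.4 for Tctn1 (95 and 141) to 66.8 for Cc2d2a (68 and 93). Cc2d2a, a transition zone scaffold gene mutated in Joubert and Meckel syndromes, was the lowest of the set, and its CpG ratio of 0.252 was also the lowest. C2cd3, a centriolar gene needed for cilium assembly, stood at 95.1, from a strength of 107 (percentile 96.5) in replicate 1 and a percentile of 93.7 in replicate 2. The regulators of Hedgehog signalling in the cilium were Kif7 (100 and 129, percentile 89.7), Evc2 (91 and 122, percentile 83.1) and Evc (76 and 117, percentile 76.1). The planar cell polarity effectors Wdpcp, Intu and Fuz stood at 93.5, 85.9 and 81.9. Of the ciliary membrane genes, Arl13b, a small GTPase, stood at 87.9 and the phosphatase gene Inpp5e at 81.6.

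The libraries ordered the genes alike in part. Across the 39 genes, Pearson's r between the percentiles of the libraries was 0.699 and Spearman's rho 0.671, against a rho of 0.888 across 14388 genes, whose range is far wider. These are correlations across genes, which share 2 libraries and their depth and are not independent replicates. The median absolute difference between libraries was 4.37 percentile points, against 4.85 for all genes. No gene differed by 20 points or more. The widest gaps were those of Arl13b (86 and 136, 13.7 points higher in replicate 2), Fuz (77 and 130, 13.3 points) and Tmem216 (76 and 129, 12.9 points). Neighbours in the order that lie within a few points of each other are not separated by these data.

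**Figure D3:**
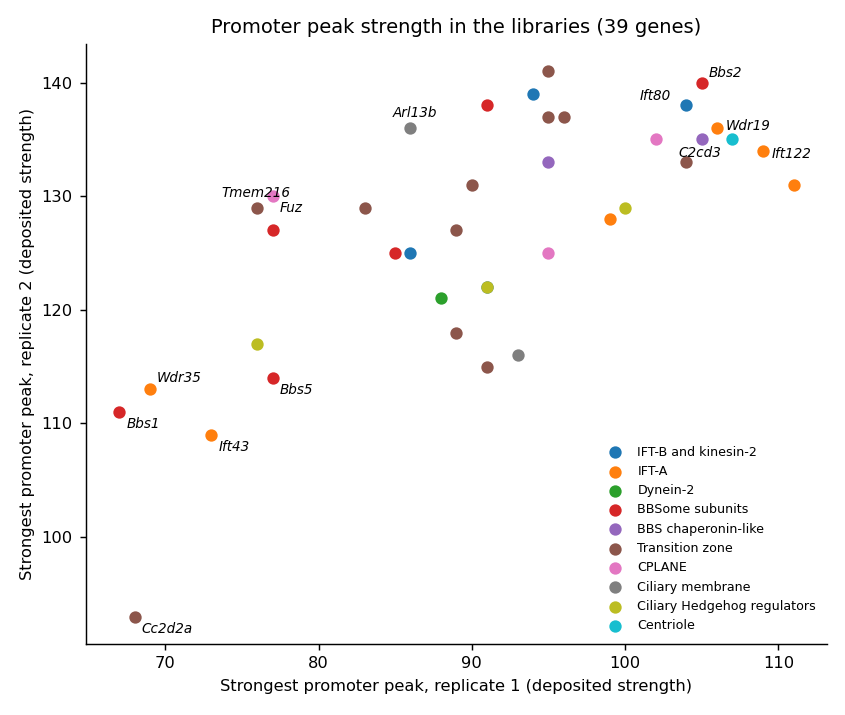
Deposited strength of the strongest promoter peak in replicate 1 (x axis) and replicate 2 (y axis), 1 point per gene, coloured by role. The axes do not start at 0. Cc2d2a lies at 68 and 93, apart from the other genes, and Arl13b, Fuz and Tmem216, whose percentiles differ most between the libraries, are named. The strengths of the libraries may not be on 1 scale.

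The strongest shared peak lay within 100 bp of a start site in 30 genes (76.9%, against 65.6% of all genes) and within 250 bp in 34. Its median position was 44 bp upstream, against 33 bp upstream for all genes. Bbs2 differed: its strongest peak (chr8:94098436-94098585), at the same position in both libraries, lay 417 bp downstream of its only start site, and the peak 163 bp upstream had strengths of 21 and 38. A single shared promoter peak was found in 23 genes and 2 or more in 16, for 59 distinct peaks in all.

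Several genes had separate peaks at separate start sites. The strongest peak of Intu (chr3:40540696-40540845) lay at a start site 9.48 kb downstream of the first one. The first start site had peaks of strengths 32 and 90, 245 bp downstream in replicate 1, and of 38 and 52 farther on. Dync2h1 had a peak of strengths 88 and 120 at its first start site and one of 81 and 121 at the internal start. In Dync2h1 the 2 promoters were therefore of near equal strength in both libraries. Tmem67, the transition zone gene of Meckel syndrome known as meckelin, had a peak of strengths 62 and 111 at its downstream start site and one of 89 and 127 lying 689 bp past its upstream start. Evc and Evc2, neighbouring genes mutated in Ellis-van Creveld syndrome, start 1605 bp apart on opposite strands. Each had its own shared peak at the same position in both libraries, chr5:37336856-37337005 for Evc and chr5:37338416-37338565 for Evc2.

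**Figure D4:**
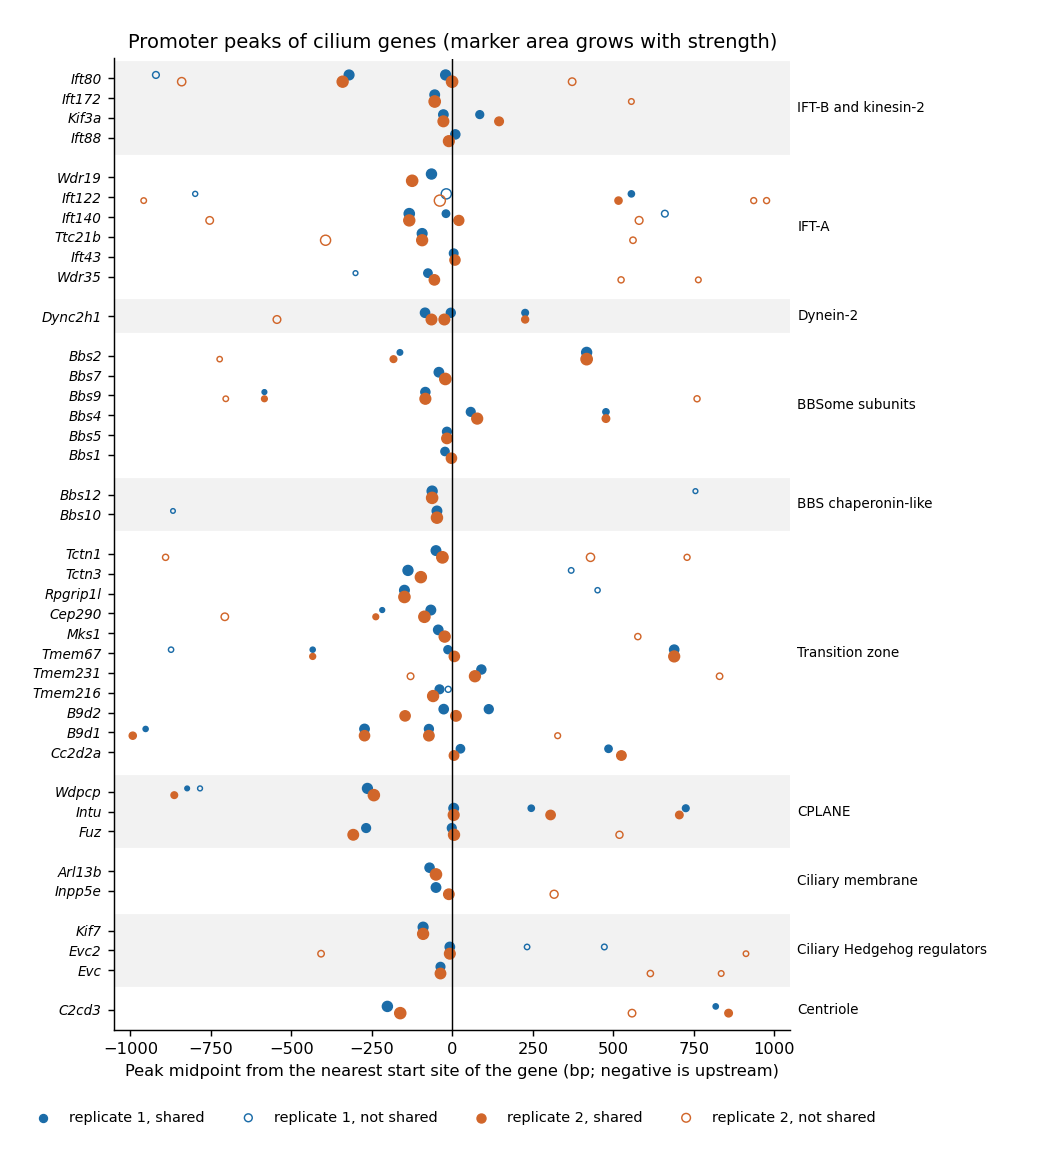
Position of each promoter peak relative to the nearest start site of its gene (x axis, bp, negative is upstream), for replicate 1 and replicate 2, with marker area growing with strength and open markers for peaks that are not shared. Most large markers lie within 250 bp of the start site, and those of Bbs2 and Tmem67 lie at 417 and 689 bp.

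The count for Ift122 depended on the sharing rule. Its strongest peaks, 19 bp upstream (strength 109) in replicate 1 and 39 bp upstream (134) in replicate 2, overlapped by 70 bp and so were not counted as shared. It counted through a weaker peak of strengths 31 and 47 at 556 bp downstream, and it was the 1 gene lost with a promoter window of 500 bp or with the 50000 strongest peaks of each library. Weaker unshared peaks of Wdpcp, Ift140 and Ift80 also overlapped by 70 bp. The least overlap that counted was 90 bp, reached by a Kif3a peak 85 bp downstream (strengths 58 and 74). The promoter peak nearest the 1 kb limit was one of B9d1 953 bp upstream (16 and 46), and the nearest distal one belonged to Tmem231, 1110 bp downstream (44 and 71).

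In 11 of 39 cilium genes (28.2%) the strongest shared promoter peak also lay within 1 kb of the start site of another protein-coding gene, against 16.2% of all genes with a shared promoter peak (2254 of 13899). In 9 of them the genes were divergent, with start sites 42 to 297 bp apart. The pairs with a peak among the stronger ones were Ift80 with the condensin gene Smc4 (104 and 138), Ift140 with Cramp1l (111 and 131), Bbs12 with the centrin gene Cetn4 (mean percentile 94.5) and Tctn3 with Entpd1 (104 and 133). Wdpcp shared its peak (mean percentile 93.5) with Mdh1, whose product is malate dehydrogenase, 42 bp away. Rpgrip1l, a transition zone gene, shared its peak (96 and 137) with Fto, from which it starts 263 bp away. Cep290, a transition zone gene with Tmtc3 as its partner (95 and 137), and Dync2h1, with Dcun1d5 (88 and 120), were arranged alike. The shared peak of Ift122 (31 and 47) was also near the start of Mbd4. The remaining pairs, C2cd3 with Ppme1 (mean percentile 95.1) and Tmem67 with Rbm12b2 (89 and 127), ran on opposite strands with overlapping starts. At such peaks the accessibility of the 2 genes cannot be told apart.

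Tctn2, a transition zone gene, was outside the counts, since its transcripts are not typed as protein-coding in the annotation used. A peak lay at its annotated start (chr5:124598636-124598785, midpoint 38 bp upstream), at the same position in both libraries, with strengths of 84 and 133. These correspond to percentiles of 79.7 and 91.6 among promoter peaks. Its start was thus open in both libraries, at a rank near that of the other cilium genes. The nearest protein-coding start was that of Gtf2h3, 19609 bp away.

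Away from promoters, each distal peak was counted for the gene whose protein-coding start site was closest, which need not be the gene it acts on. A shared distal peak was assigned to 29 of 39 cilium genes (74.4%), against 62.8% of all protein-coding genes. The direction of this difference turned when only peaks at the same position in both libraries were kept (35.9% against 42.6%) and with the 50000 strongest peaks of each library (23.1% against 41.5%). They received 103 of the 62952 shared distal peaks, where 93.1 would be expected from the share of the genome nearest to their start sites. Intu alone received 37, and without it the other 38 genes received 66, where 71.2 would be expected (ratio 0.927). The median was 1 shared distal peak per gene, as over all genes, and 19 genes (48.7%) had more than expected, against 44.6% of all genes. No shared distal peak fell to 10 genes: Ift140, Ift172, Bbs2, Bbs4, Mks1, Tctn3, Cep290, B9d2, Inpp5e and C2cd3. The facial mesenchyme transcription factor genes Prrx1, Prrx2, Twist1, Msx1, Alx1, Dlx5 and Tfap2a together received 122, where 30 would be expected. An excess was also present in other lists of marker genes, such as endothelial (60 against 33.9) and muscle genes (43 against 22.4). Multiciliated cell genes received fewer than expected (24 against 38.1).

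**Figure D5:**
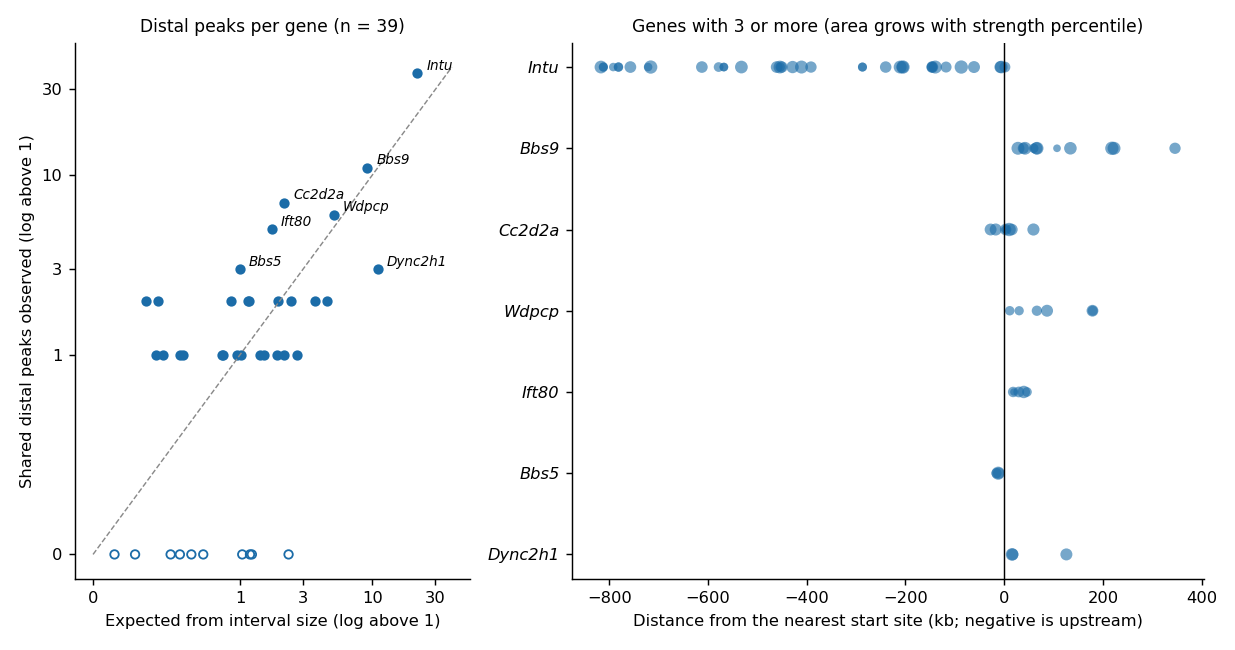
Left, shared distal peaks of each of the 39 genes (y axis) against the number expected from the size of the interval nearest to its start sites (x axis), both axes linear below 1 and logarithmic above, with the dashed line marking equality and open markers at 0. Right, distance of each peak from the nearest start site (kb) for the genes with 3 or more. Intu has 37 peaks, nearly all upstream, and Dync2h1 lies below the line with 3 where 11 would be expected.

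Intu lies beside a gene desert: the next protein-coding start site before it is that of the atypical cadherin gene Fat4, 1644 kb away, and the interval nearest to Intu spans 916 kb. Its 37 peaks compare with 21.9 expected, and 0.249% of all genes had as many or more. Of them 36 lay upstream and 32 beyond 100 kb, up to 817 kb away. Some replicate 1 peaks overlapped each other there, so that the 37 matched 32 distinct replicate 2 peaks. Their median percentile among distal peaks was 69.2. The strongest were at chr3:40326196-40326345, 205 kb upstream (strengths 55 and 108, percentile 96.8), at chr3:40444356-40444505, 86.9 kb upstream (65 and 95, 96.5), and at chr3:39814936-39815085, 716 kb upstream (56 and 102, 96.4). Which gene these elements act on was not measured.

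Bbs9, a BBSome subunit gene, had 11 shared distal peaks where 9.18 would be expected, all in its introns and 28 to 346 kb from a start site. The strongest of them (chr9:22709076-22709225, strengths 57 and 105, percentile 96.8) lay 233 kb past the first start site. Cc2d2a had 7 where 2.15 would be expected, of which 4 were intronic, 2 intergenic and 1 exonic. The exonic one (chr5:43672296-43672445, strengths 69 and 103) lay 10 kb downstream of the start site, within 1 kb of the start of another annotated Cc2d2a transcript. At percentile 97.8 it ranked high among distal peaks, which are ranked apart from promoter peaks. In deposited strength it was near the Cc2d2a promoter peak (68 and 93), which ranked lowest of the set among promoter peaks. Ift80 had 5 (1.74 expected) and Wdpcp 6 (5.13 expected), all intronic. Bbs5 had 3 intergenic ones (1 expected), with the strongest 12 kb upstream (55 and 87, percentile 94). Dync2h1 had 3 in its introns, where 11 would be expected from its interval of 461 kb.

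Of the 103 distal peaks, 49 (47.6%) were intronic, 49 (47.6%) intergenic and 5 (4.85%) exonic. Among 6296 shared distal peaks sampled evenly over all genes, these shares were 41.5%, 52.6% and 5.89%. The intergenic share rested on Intu: the other 38 genes had 48 of 66 intronic (72.7%), 13 intergenic (19.7%) and 5 exonic (7.58%). The peaks were weaker than distal peaks at large, with a median percentile of 73 against 78.8, and 13 (12.6%) lay above percentile 90, against 24.9%. Without Intu these values were 75 and 12.1%. The median distance from a start site was 52.9 kb, against 30.7 kb for all genes, but it rested on Intu, without which it was 25.2 kb. The strongest was in an exon of Kif7 (chr7:79710216-79710365, strengths 67 and 113, percentile 98.4), 5.43 kb past the first start site and within 1 kb of the start of the noncoding gene 9330171B17Rik. One of Fuz (chr7:44901276-44901425, 60 and 110, percentile 97.6) lay 5.27 kb past the first start site in an exon shared with Ap2a1, near a transcript start of that gene. Over the set, 7 of the 103 distal peaks had some annotated transcript start within 1 kb.

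The same counts were made for other genes of the cilium. Of 55 other primary cilium genes, 53 had a shared promoter peak, with a median percentile of 88 and 140 shared distal peaks where 125 would be expected. The exceptions were Efcab7, which tethers the EvC complex and had no promoter peak, and Gpr161, a ciliary receptor that restrains Hedgehog signalling, with a single replicate 2 peak of strength 36. An X-box match was in 12 of the 53 (22.6%), among them Arl6, Ahi1, Tmem237, Ift57 and Dync2li1. Of 24 genes of motile cilia, 20 had a shared promoter peak, with a median percentile of 73.1 and an X-box match in 8 of the 20 (40%). The multiciliated cell regulator Foxj1 had promoter strengths of 90 and 124, and Mcidas and Dnaic1 likewise had a shared promoter peak. By contrast, Gmnc had a promoter peak in replicate 2 alone and Dnah5, an outer dynein arm gene, had none. All 8 RFX genes had a shared promoter peak, from percentile 97.6 for Rfx1 (106 and 142) and 97.3 for Rfx2 (105 and 142) to 41.9 for Rfx6 (36 and 60). Rfx3, a known regulator of ciliogenesis, stood at 91.7 (96 and 136). An open promoter is not a measure of expression, which was not assayed.

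Marker genes were looked at to place the tissue. A shared promoter peak was present at 7 of 7 facial mesenchyme genes, 4 of 4 neuronal, 3 of 4 muscle and 3 of 6 ectodermal genes. It was present at 3 of 5 multiciliated cell genes, 2 of 5 endothelial, 0 of 4 erythroid and 0 of 4 macrophage genes. Over all protein-coding genes the share was 64.2%, and such small counts near that share say little about cell types. In a tissue of several cell types, a site open in few cells and one weakly open in many cannot be told apart. Of the ectodermal, erythroid and macrophage markers, Krt5, Krt14, Gata1, Hba-a1, Csf1r, Spi1 and Ptprc had no promoter peak in either library. On the same lists, Epcam (45 and 87), Grhl2 (50 and 74) and Esrp1 (49 and 87) had a shared one. Unshared promoter peaks were at Klf1 (14 and 61), at Trp63 and Hbb-bt (replicate 2 alone, 40 and 12) and at Cx3cr1 (replicate 1 alone, 6). The part of cell types in the values of the cilium genes was not tested.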

How the data were processed

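DNase-seq peaks and hotspots were deposited for each of the 2 libraries. Per the notes that accompany the files, they were called by the authors on each library alone, from alignments to mm10. The aligner, the caller, versions and thresholds were not given in the sources used here. The deposited peak strength is a signal value, a whole number with no stated scale, from 1 to 149 on the chromosomes analysed. The deposited hotspot value is −log10 q, with a ceiling of 100. No total of reads was in the files used here, so the depth and its precision are unknown. Replicate 1 had 209853 deposited peaks and 178464 hotspots, and replicate 2 had 219399 and 188815.

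The analysis kept chromosomes 1 to 19 and X (209299 and 219061 peaks). Start sites were the 41135 of protein-coding transcripts in the basic set of GENCODE release M21. Shared peaks (85950) are replicate 1 peaks covered by 75 bp or more of a replicate 2 peak. The expected number of distal peaks shares out all shared distal peaks among genes, in proportion to the length of genome nearest to each gene's start sites. The CpG ratio was taken over 1000 bp around the start site. No test was made, since the series holds 1 group. Genes with full values are the 5 highest and 5 lowest promoters by mean percentile, those with 3 or more shared distal peaks, with a promoter shared with another gene or with an X-box match, and those differing by 20 percentile points between libraries. The genes, roles and lists were chosen with earlier results of these data known. Computation used Python 3.11.15, numpy 2.4.6 and pandas 2.3.3. The functions that match, assign and rank peaks were tested on simulated data.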

Additional observations from a re-analysis of the deposited data

How the results depend on the processing

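Of the 47 values recomputed, 34 stayed within 1.5 times the reported count or, for the median percentile, within 1 SD. The median percentiles with a replicate left out are the library medians from which that SD was taken. Their staying within it was thus largely set in advance. Peak starts lie on a grid of 20 bp, so that an overlap of 90% of a peak asks for the same position in both libraries. With it, 18 cilium genes had a shared promoter peak (28.8% of all genes). A shared distal peak was left in 14 (35.9%), against 42.6% of all genes, and the distal peaks numbered 24. An X-box match was in 2 of the 18, against 5.98% of all genes that still had a shared promoter peak. With the 50000 strongest peaks of each library, 38 genes had a shared promoter peak (58.4% of all genes), 9 (23.1%) had a distal one against 41.5% of all genes, the distal peaks numbered 21 and the median percentile was 74.6 (all genes 70.9). The median percentile was 79.6 with a promoter window of 500 bp (all genes 73.5), 89.4 with 2.5 kb (85.9) and 87.9 with all transcripts of protein-coding genes (84.1). In each of these the median stayed above that of all genes, while the share of genes with a distal peak fell below that of all genes under the first 2 settings. Leaving out a replicate removes the demand for a match, and the distal peaks then numbered 280 to 329. Without Intu, an alternative chosen after seeing the data, they numbered 66. The stricter X-box pattern gave 8 genes, and the peak with 75 bp on each side gave 13 (12.9% of all genes with a shared promoter peak). No paired analysis was possible because the series holds a single group of 2 libraries. With 2 libraries and unknown depth, the absence of a peak does not show that a site was closed.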
